A study of Mus musculus with 8 samples.

Results

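The 38 genes described here carry out base excision repair and mismatch repair, or supply the DNA synthesis that both pathways share. They were taken from a list of gene names, and every probe set whose annotation gives 1 symbol on that list was used. This found 36 of the 38 genes on 72 probe sets, among 18193 named genes on the array. Neil2 had no probe set under its name, and the 3 probe sets that carry Tdg also carry other symbols, so neither gene has a value here. Each gene is represented by its probe set with the highest mean over the 8 arrays, and 34 genes had a mean above 2.72, the median over all probe sets, which served as the filter on low signals.

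The series profiled wild-type and Crebbp+/- embryos on the C57BL/6 background. Crebbp encodes the acetyltransferase CBP, a co-activator that many transcription factors recruit, and the heterozygous embryos keep 1 intact copy; the labels do not say which part of the gene was removed. Haematopoietic stem cells were sorted from fetal liver as Sca-1+, lineage-negative, AA4.1+ cells with high c-Kit, at 14 days post coitum in one label field and 14.5 in another. Each preparation pooled 15 embryos; amplification started from 12 ng of total RNA and gave targets carrying biotin. Each genotype has 2 numbered samples with 2 arrays each; the labels say neither whether the repeat arrays hold separate cells nor whether the numbered samples come from separate litters. Repeat arrays were therefore averaged, n is 2 samples per genotype, and p-values measure only the spread between these preparations. The values are log2 signals, so a difference of 1 is a doubling.

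Base excision repair removes small base lesions. A DNA glycosylase cuts out the damaged base, an endonuclease opens the strand at the abasic site, and a polymerase and a ligase close the gap, either by replacing the lost base alone or by displacing a longer flap. Mismatch repair recognises base pairs and loops left by replication errors, cuts back the new strand, and fills the gap with the replicative polymerase delta, held on DNA by the PCNA clamp. Dividing blood progenitors use both pathways, and the synthesis proteins also copy the genome in every S phase.

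Promoter sequence was available for 33 of the 38 genes, on 40 promoters from RefSeq (build GRCm38.p6). The 250 bases before each start site were searched on both strands for the full cAMP response element, TGACGTCA, which binds the CREB factors that recruit CBP. They were also searched for 4 forms of the E2F motif (TTTCCCGC, TTTGGCGC, TTTCGCGC and TTTGCCGC), bound by the E2F factors of S-phase genes. The matched stretches are shown because they are the only promoters of these genes that held either motif in full. Capitals mark the motif, and each sequence reads 5′ to 3′ in the direction of transcription. The first 2 hold the cAMP response element and the other 3 an E2F motif. Aptx is at chr4:40703195-40703241 (minus strand), Tdg at chr10:82629673-82629740 (plus strand), Msh3 at chr13:92355168-92355235 (minus strand), Nthl1 at chr17:24632520-24632587 (plus strand) and Rfc3 at chr5:151651209-151651248 (minus strand).
Aptx: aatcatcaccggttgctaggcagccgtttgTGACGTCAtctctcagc
Tdg: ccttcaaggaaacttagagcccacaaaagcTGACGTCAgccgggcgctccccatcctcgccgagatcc
Msh3: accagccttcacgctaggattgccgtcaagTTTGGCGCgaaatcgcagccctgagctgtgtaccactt
Nthl1: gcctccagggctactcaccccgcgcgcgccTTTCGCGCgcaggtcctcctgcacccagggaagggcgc
Rfc3: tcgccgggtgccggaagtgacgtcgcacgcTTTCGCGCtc
The cAMP response element was found in 2 of the 33 genes with a promoter, against 1.77% of all 27025 genes in the same table. The E2F motifs were found in 3 of the 33, against 2.16% of all genes. A match describes the letters and is no evidence of binding. Of these 5 genes, Aptx, Msh3 and Rfc3 had a measured difference between genotypes, given with their roles below.

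Across both pathways, no repair gene passed the test between Crebbp+/- and wild-type stem cells. With limma, the lowest adjusted p of any of the 34 genes was 0.991 and the highest 0.9995, and 0% of the 22518 tested probe sets passed at an adjusted p below 0.05. At an unadjusted limma p below 0.05 there were 0 of the 34 repair genes, against 2.67% of all 10600 genes tested. With 2 samples against 2, an exact permutation test could not go below 0.33. The differences of the 34 genes, Crebbp+/- minus wild type, ran from -0.43 for Pms1 to 0.52 for Mutyh, and 18 lay above 0 and 16 below, or 52.9% above 0 against 56.9% of all genes.

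Their median difference was 0.019, beside 0.042 over all genes. It was 0.049 between the samples numbered 1 and -0.024 between those numbered 2. Leaving out wild-type sample 1 turned it to -0.034, leaving out Crebbp+/- sample 2 turned it to -0.052, and quantile normalization turned it to -0.018. The median size of a difference, its sign set aside, was 0.16 for the repair genes and 0.18 for all genes. By pathway, the median was -0.044 over 18 base excision repair genes, 0.066 over 6 mismatch repair genes and 0.052 over 10 shared synthesis genes.

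In both Crebbp+/- samples 5 of the 34 genes lay above both wild-type samples: Smug1, Mbd4, Mutyh, Lig3 and Rfc3. That is 14.7% of them, against 17.1% of all genes. Another 3 genes, Parp2, Polb and Lig1, lay below both wild-type samples in both Crebbp+/- samples, which is 8.82% against 11% of all genes. For 20 genes the difference had the same sign within both sample numbers, or 58.8% against 61.9% of all genes. Only 2 genes, Exo1 and Rfc4, differed between genotypes by more than the widest gap between repeat arrays of any sample, or 5.88% against 14.1% of all genes. All these shares were close to or below those over all genes.

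The 95% intervals, taken gene by gene with no adjustment for their number, show how large a difference the design could miss. They lay wholly within 1 log2 unit of 0 for 21 of the 34 genes, or 61.8% against 56.4% of all genes. The narrowest was that of Pcna, -0.20 to 0.46. The intervals of the other 13 genes reached a doubling or a halving in at least 1 direction. As this is sorted bulk RNA, fewer cells that express a gene and less RNA per cell cannot be told apart.

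**Figure D1:**
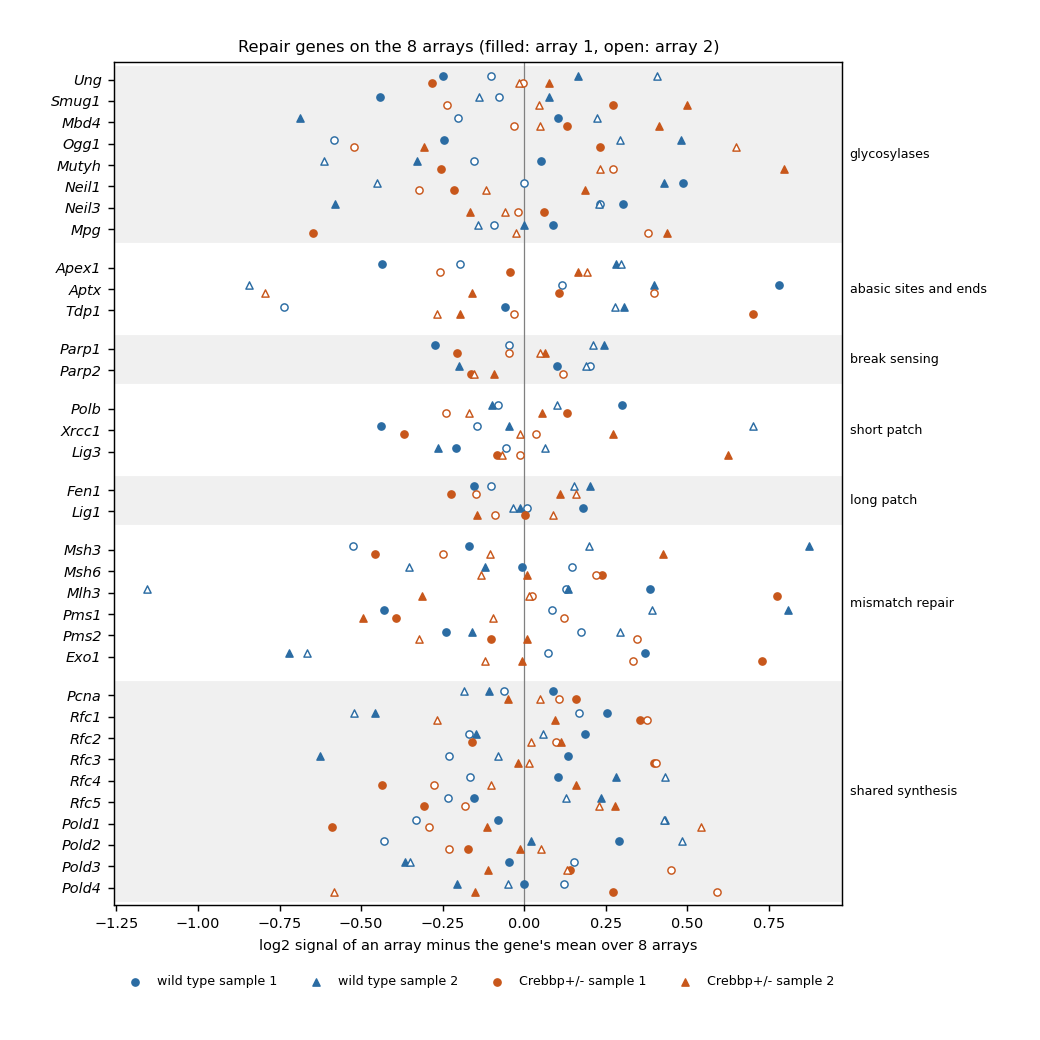
Log2 signal of each array minus the gene's mean over the 8 arrays (x axis) for the 34 repair genes above the filter (y axis), grouped by role. Colour gives the genotype, shape the sample number and filling the repeat array. The points of both genotypes overlap for all 34 genes.

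The sort and the RNA were checked first on genes outside the repair list. All 8 named stem and progenitor markers, among them Kit and Cd93 (the AA4.1 antigen), were above the filter, and all 5 named erythroid markers, Hba-a1 and Alas2 included, were below the filter. Of 7 hepatocyte markers 6 were above the filter; their list summed to linear signals of 679 and 1587 in wild type and 1059 and 1135 in Crebbp+/-, with Hnf4a high in every sample, while Alb itself was 2.43 and 7.06 (log2) in wild type and 5.85 and 5.74 in Crebbp+/-. Wild-type sample 1 thus stood apart, with Alb below the filter. Macrophage markers (2 of 6 above the filter, with C1qa, Vcam1, Timd4 and Adgre1 below it) summed to 981 and 1817 in wild type and 696 and 1992 in Crebbp+/-. Nearly all of that sum was Csf1r, at 9.81 and 10.76 (log2) in wild type and 9.31 and 10.90 in Crebbp+/-, while Cd68 was 6.01 and 5.87, and 5.41 and 5.89. Endothelial markers (2 of 6, with Cdh5, Kdr, Lyve1 and Stab2 below it) summed to 707 and 535, and to 642 and 605. Mast cell markers summed to 22.8 and 25.8 in wild type and 53.8 and 59.5 in Crebbp+/-, with Cpa3 the 1 of 4 above the filter and Mcpt4, Tpsb2 and Fcer1a below it. The 5′ probe set of Gapdh minus its 3′ probe set, a measure of how far labelled RNA reaches, was a log2 difference of -1.22 and -2.59 in wild type and -0.89 and -1.88 in Crebbp+/-, the wider gap being that of number 2 in both genotypes. Crebbp itself, on the brightest of its 4 probe sets, was 12.07 (sample 1) and 11.41 (sample 2) in wild type. In Crebbp+/- it was 11.95 (sample 1) and 11.66 (sample 2). The removed part is not given, so whether this probe set could show the deletion is not known. The part of these markers and of this gap in the differences below was not tested.

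The glycosylases start base excision repair, each on its own kinds of damaged base. Of 11 on the list, 8 had a signal above the filter; 5 of them were higher and 3 lower in Crebbp+/-, with a median difference of 0.051 beside 0.042 over all genes. Mutyh, which removes adenine paired with oxidised guanine, had log2 signals of 4.60 (sample 1) and 4.17 (sample 2) in wild type and 4.66 (sample 1) and 5.16 (sample 2) in Crebbp+/-. Both Crebbp+/- samples lay above both wild-type samples, but number 1 of each genotype nearly coincided and the gap came from number 2. The difference was 0.52 (SE 0.33, 95% interval -0.33 to 1.37), a fold of 1.44, with 0.061 within number 1 and 0.99 within number 2. Its limma p before adjustment, 0.17, was the lowest of the repair genes, and the adjusted p was 0.991.

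Mbd4 removes thymine or uracil opposite guanine at CpG sites, where methylated cytosine has lost its amino group. Its signals were 7.40 (sample 1) and 7.22 (sample 2) in wild type and 7.50 (sample 1) and 7.68 (sample 2) in Crebbp+/-. The Crebbp+/- samples were both higher, and the genotypes did not overlap at the level of samples. The difference was 0.28 (SE 0.25, 95% interval -0.38 to 0.94), with 0.10 within number 1 and 0.46 within number 2, and the 2 arrays of 1 sample lay up to 0.91 apart. Smug1, a uracil glycosylase that acts on single- and double-stranded DNA, read 6.02 (sample 1) and 6.25 (sample 2) in wild type and 6.30 (sample 1) and 6.55 (sample 2) in Crebbp+/-. Here too both Crebbp+/- samples were higher, by nearly the same step in each number. The difference was 0.29 (SE 0.29, 95% interval -0.46 to 1.04), with 0.28 within number 1 and 0.30 within number 2, beside gaps between repeat arrays of up to 0.51.

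Ung, the main uracil glycosylase and the one that acts on antibody genes, showed 11.04 and 11.50 in the wild-type samples and 11.07 and 11.24 in the Crebbp+/- samples. The wild-type samples spanned the Crebbp+/- samples, and the difference was -0.11 (SE 0.21). Ogg1, which removes oxidised guanine, had 4.90 and 5.70 in the wild-type samples and 5.17 and 5.48 in the Crebbp+/- samples. Its highest and lowest samples were both wild type, and the difference was 0.027 (SE 0.38). Neil1, a glycosylase for oxidised pyrimidines, gave 5.31 and 5.05 in the wild-type samples and 4.79 and 5.10 in the Crebbp+/- samples. Only Crebbp+/- sample 1 stood below the other 3, and the difference was -0.23 (SE 0.29).

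Neil3, a related enzyme found in dividing cells that also opens crosslinks between strands, stood at 8.61 and 8.17 in the wild-type samples and 8.37 and 8.23 in the Crebbp+/- samples. The difference of -0.092 (SE 0.26) was smaller than the gap between the wild-type samples. Mpg, which removes alkylated purines, was at 7.45 and 7.38 in the wild-type samples and 7.32 and 7.66 in the Crebbp+/- samples, with a difference of 0.074 (SE 0.26). The Crebbp+/- samples lay on either side of both wild-type samples. Nthl1, another glycosylase for oxidised pyrimidines whose promoter holds an E2F motif, was below the filter at 2.41 and 2.84 in the wild-type samples and 2.55 and 2.45 in the Crebbp+/- samples. It was not tested; 3 of its 4 values lay below the filter of 2.72, and wild-type sample 2, the highest, just above it.

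At the next step Apex1, the main abasic-site endonuclease, cuts the strand, and Aptx and Tdp1 clean blocked ends. Apex1 read 11.40 and 12.00 in the wild-type samples and 11.56 and 11.89 in the Crebbp+/- samples. Number 2 was above number 1 in both genotypes, and the genotypes differed by 0.028 (SE 0.25). Aptx, which removes AMP left by failed ligation and whose promoter holds a cAMP response element, had signals of 5.44 (sample 1) and 4.77 (sample 2) in wild type and 5.25 (sample 1) and 4.52 (sample 2) in Crebbp+/-. Number 1 was the higher sample in both genotypes, and each wild-type sample lay above the Crebbp+/- sample of its number. The genotypes still overlapped, and the difference was -0.22 (SE 0.41, 95% interval -1.30 to 0.85), with -0.20 within number 1 and -0.25 within number 2.

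Tdp1 releases proteins such as trapped topoisomerase from DNA ends. It had 6.20 (sample 1) and 6.89 (sample 2) in wild type and 6.93 (sample 1) and 6.36 (sample 2) in Crebbp+/-. In wild type the second sample was the higher, in Crebbp+/- the first, so the difference of 0.10 (SE 0.39) joined opposite values of 0.73 within number 1 and -0.52 within number 2. Apex2, a second endonuclease of the family, was below the filter at 2.81 and 2.55 in the wild-type samples and 2.62 and 2.62 in the Crebbp+/- samples and was not tested.

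Parp1 and Parp2 sense strand breaks and build poly(ADP-ribose) chains that recruit the later enzymes. Parp1 stood at 12.23 and 12.62 in the wild-type samples and 12.26 and 12.45 in the Crebbp+/- samples, and the Crebbp+/- samples lay within the range of the wild type. The difference was -0.069 (SE 0.18). Parp2 had signals of 10.06 (sample 1) and 9.91 (sample 2) in wild type and 9.89 (sample 1) and 9.79 (sample 2) in Crebbp+/-. Both Crebbp+/- samples were below both wild-type samples, by a margin of hundredths of a log2 unit. The difference was -0.15 (SE 0.17, 95% interval -0.60 to 0.31), with -0.17 within number 1 and -0.12 within number 2, less than the widest gap of 0.39 between repeat arrays.

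In the short-patch branch Polb inserts the missing base, Xrcc1 is the scaffold and Lig3 the ligase bound to it. Polb read 8.30 (sample 1) and 8.19 (sample 2) in wild type and 8.14 (sample 1) and 8.14 (sample 2) in Crebbp+/-. Both Crebbp+/- samples lay just below both wild-type samples. The difference was -0.11 (SE 0.22, 95% interval -0.68 to 0.46), with -0.16 within number 1 and -0.057 within number 2. Xrcc1 had 6.50 and 7.12 in the wild-type samples and 6.62 and 6.92 in the Crebbp+/- samples, number 2 being the higher in both genotypes, and the difference was -0.036 (SE 0.34).

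Lig3 also seals mitochondrial DNA. Its signals were 8.01 (sample 1) and 8.04 (sample 2) in wild type and 8.09 (sample 1) and 8.42 (sample 2) in Crebbp+/-. The first 3 of these lay close together and Crebbp+/- sample 2 stood above them. The difference was 0.23 (SE 0.24, 95% interval -0.40 to 0.86), with 0.083 within number 1 and 0.38 within number 2, and the repeat arrays of 1 sample were 0.69 apart.

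In the long-patch branch Fen1 removes the displaced flap and Lig1 seals the nick, as both do on Okazaki fragments. Fen1 showed 13.01 and 13.31 in the wild-type samples and 12.95 and 13.27 in the Crebbp+/- samples. Number 2 was above number 1 in both genotypes, and the genotypes differed by -0.051 (SE 0.17). Lig1 had signals of 10.02 (sample 1) and 9.90 (sample 2) in wild type and 9.88 (sample 1) and 9.90 (sample 2) in Crebbp+/-. The 4 values lay close together, with both Crebbp+/- samples marginally below the wild type. The difference was -0.071 (SE 0.17, 95% interval -0.51 to 0.37), with -0.14 within number 1 and -0.0041 within number 2.

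**Figure D2:**
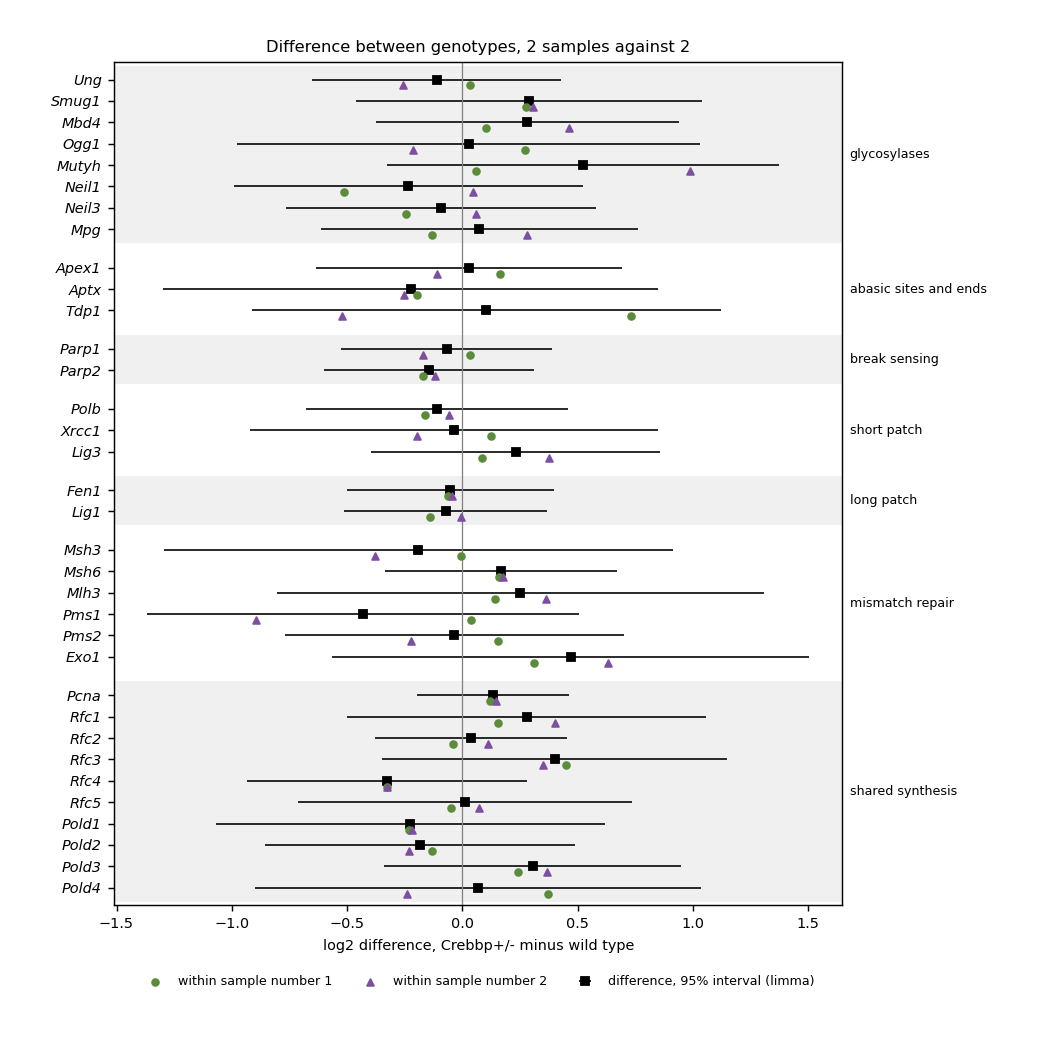
Difference in log2 signal between Crebbp+/- and wild type (x axis) for the 34 repair genes above the filter (y axis). Squares with bars give the limma difference and its 95% interval, circles the difference within sample number 1 and triangles that within number 2; every interval spans 0.

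Mismatch repair begins with Msh6 and Msh3, which recognise the error, and Pms2, Pms1 and Mlh3, which belong to the complexes that cut the new strand. Of these and Exo1, 3 were higher and 3 lower in Crebbp+/-, and none separated the genotypes by sample. Msh6, which binds base mismatches, had 11.08 (sample 1) and 10.77 (sample 2) in wild type and 11.24 (sample 1) and 10.95 (sample 2) in Crebbp+/-. In each number the Crebbp+/- sample was the higher, but number 2 was lower than number 1 in both genotypes, so the genotypes overlapped. The difference was 0.17 (SE 0.19), with 0.16 within number 1 and 0.18 within number 2.

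Msh3, which binds longer loops and whose promoter holds an E2F motif, read 6.07 (sample 1) and 6.96 (sample 2) in wild type and 6.07 (sample 1) and 6.58 (sample 2) in Crebbp+/-. Wild-type sample 2 stood above the other 3, number 1 was level between genotypes, and the difference was -0.19 (SE 0.42). Pms1, of uncertain role in repair, had 6.80 (sample 1) and 7.57 (sample 2) in wild type and 6.84 (sample 1) and 6.68 (sample 2) in Crebbp+/-. Only wild-type sample 2 stood apart, above the other 3 samples. The difference of -0.43 (SE 0.36, 95% interval -1.37 to 0.51) was the lowest of the repair genes and came from number 2, with 0.036 within number 1 and -0.90 within number 2.

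Pms2, the endonuclease that nicks the strand, showed 6.30 and 6.40 in the wild-type samples and 6.45 and 6.17 in the Crebbp+/- samples. The genotypes overlapped and differed by -0.035 (SE 0.28). Mlh3, better known for meiotic crossing over, stood at 5.58 and 4.82 in the wild-type samples and 5.73 and 5.18 in the Crebbp+/- samples, number 1 above number 2 in both. The difference was 0.25 (SE 0.40), with repeat arrays up to 1.29 apart.

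Exo1 is the exonuclease that removes the strand carrying the error. Its signals were 9.65 (sample 1) and 8.73 (sample 2) in wild type and 9.96 (sample 1) and 9.36 (sample 2) in Crebbp+/-. Number 1 was above number 2 in both genotypes, and in each number the Crebbp+/- sample was the higher, while Crebbp+/- sample 2 stayed below wild-type sample 1. The difference was 0.47 (SE 0.40, 95% interval -0.56 to 1.51), a fold of 1.39, with 0.31 within number 1 and 0.63 within number 2. The step between sample numbers was larger, at -0.92 in wild type and -0.60 in Crebbp+/-. Leaving out 1 wild-type sample gave 0.93 (number 1 omitted) or 0.013 (number 2 omitted), and leaving out 1 Crebbp+/- sample gave 0.17 or 0.77 in the same order.

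Resynthesis uses the PCNA clamp, the 5-subunit clamp loader RFC and the 4-subunit polymerase delta. Of these 10 genes 7 were higher and 3 lower in Crebbp+/-, where 56.9% of all genes were higher. Rfc2 and Rfc5, which lay barely above 0, changed sign under quantile normalization (-0.024 and -0.038). Pcna had 12.39 (sample 1) and 12.23 (sample 2) in wild type and 12.51 (sample 1) and 12.38 (sample 2) in Crebbp+/-. Each Crebbp+/- sample was above the wild-type sample of its number, with the genotypes overlapping by hundredths. The difference was 0.13 (SE 0.13, 95% interval -0.20 to 0.46), with 0.12 within number 1 and 0.15 within number 2, and its SE was the smallest of the repair genes.

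Rfc3, a small subunit of the loader with an E2F motif next to its start site, read 7.49 (sample 1) and 7.18 (sample 2) in wild type and 7.94 (sample 1) and 7.53 (sample 2) in Crebbp+/-. Both Crebbp+/- samples lay above both wild-type samples. The difference was 0.40 (SE 0.29, 95% interval -0.35 to 1.15), with 0.45 within number 1 and 0.35 within number 2, and the adjusted limma p was 0.991. Rfc4, another small subunit, had 10.44 (sample 1) and 10.83 (sample 2) in wild type and 10.11 (sample 1) and 10.50 (sample 2) in Crebbp+/- on its brightest probe set. In each number the Crebbp+/- sample was lower by the same step, and the genotypes overlapped because number 2 was higher than number 1 in both. The difference was -0.33 (SE 0.23, 95% interval -0.93 to 0.28), with -0.33 within number 1 and -0.33 within number 2. The other probe set of Rfc4 read 9.73 and 9.86 in the wild-type samples and 9.91 and 10.00 in the Crebbp+/- samples, both Crebbp+/- samples above both wild-type samples, with a difference of 0.16 (SE 0.17), so the direction of Rfc4 turns with the probe set.

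The large subunit Rfc1 showed 11.75 and 11.05 in the wild-type samples and 11.91 and 11.45 in the Crebbp+/- samples, with number 1 above number 2 in both and a difference of 0.28 (SE 0.30). Rfc2 stood at 10.28 and 10.23 in the wild-type samples and 10.24 and 10.34 in the Crebbp+/- samples, and Rfc5 at 8.83 and 9.20 in the wild-type samples and 8.78 and 9.27 in the Crebbp+/- samples. Their differences were 0.037 (SE 0.16) and 0.011 (SE 0.28). By their brightest probe sets the 5 subunits had differences from -0.33 to 0.40. The signs of Rfc2 and Rfc4 turned with the probe set. The other probe sets of Rfc2 gave -0.069 and -0.16, and that of Rfc4 gave 0.16.

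Polymerase delta showed a similar mixture. Pold3, an accessory subunit, had 9.18 (sample 1) and 8.77 (sample 2) in wild type and 9.42 (sample 1) and 9.13 (sample 2) in Crebbp+/-. In each number the Crebbp+/- sample was the higher, with the genotypes overlapping. The difference was 0.30 (SE 0.25, 95% interval -0.34 to 0.95), with 0.24 within number 1 and 0.37 within number 2. Pold1, the catalytic subunit, read 11.08 and 11.71 in the wild-type samples and 10.84 and 11.50 in the Crebbp+/- samples, lower in Crebbp+/- within each number and different by -0.22 (SE 0.32). The steps between sample numbers of Pold1, 0.64 in wild type and 0.65 in Crebbp+/-, were larger than that.

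Pold2, which joins the subunits, had 7.82 and 8.14 in the wild-type samples and 7.69 and 7.91 in the Crebbp+/- samples and a difference of -0.18 (SE 0.26). Pold4, the smallest subunit, had 6.78 and 6.59 in the wild-type samples and 7.15 and 6.35 in the Crebbp+/- samples and a difference of 0.066 (SE 0.37). The Crebbp+/- samples of Pold4 lay on either side of both wild-type samples.

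For most of the repair genes the sample number set the larger contrast. The difference between numbers, averaged over genotypes, was larger in size than the difference between genotypes for 22 of the 34 genes, or 64.7% against 64.6% of all genes. Number 2 differed from number 1 in the same direction in both genotypes for 25 of the 34, or 73.5% against 73.1% of all genes. Both shares equal those of the whole array to within 1 gene. The median size of the step was 0.38 in wild type and 0.31 in Crebbp+/-, beside 0.32 and 0.29 over all genes.

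On their brightest probe sets, Msh3 and Ogg1 had wide upward steps from number 1 to number 2. Wild type stepped by 0.88 for Msh3 and 0.80 for Ogg1, and Crebbp+/- by 0.51 and 0.32. The other probe set of Ogg1 went down in wild type (-0.42) and up in Crebbp+/- (0.42), so the wild-type direction of Ogg1 depends on the probe set. Exo1, Mlh3 and Aptx were lower in number 2, Mlh3 by -0.77 in wild type and -0.55 in Crebbp+/- and Aptx by -0.67 in wild type and -0.73 in Crebbp+/-. Pold4 was lower in number 2 by -0.19 in wild type and -0.80 in Crebbp+/-. Mutyh, Pms1 and Tdp1 had steps of opposite sign in the 2 genotypes, Mutyh of -0.42 in wild type and 0.50 in Crebbp+/-. Across the 34 genes the steps of both genotypes correlated with r = 0.58, and with r = 0.58 over all genes; genes are not independent replicates, and the points share their preparations. The wider 5′ to 3′ gap also went with number 2 in both genotypes, as did a higher Csf1r, and their part in these steps was not tested. The summed macrophage signal was also higher in number 2 of both genotypes, nearly all of it from Csf1r. Cd68 was 6.01 (sample 1) and 5.87 (sample 2) in wild type and 5.41 (sample 1) and 5.89 (sample 2) in Crebbp+/-. Adgre1, with a mean below the filter, was 2.36 and 3.07 in wild type and 2.36 and 2.72 in Crebbp+/-. C1qa, Vcam1 and Timd4 were below the filter.

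**Figure D3:**
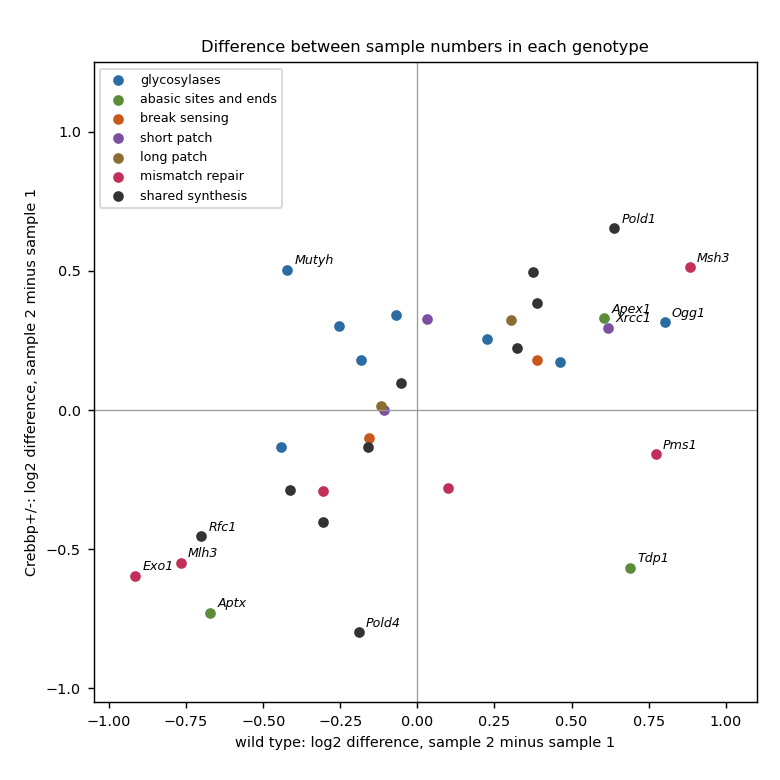
Log2 difference of sample 2 minus sample 1 in wild type (x axis) and in Crebbp+/- (y axis), 1 point for each of the 34 repair genes above the filter, coloured by role. Points in the lower left and upper right have the same sign in both genotypes, as 25 of the 34 do; genes with a wide step are named.

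Many of these genes have more than 1 probe set, and these often disagreed. Of the 72 probe sets 62 were above the filter, and 18 genes had several. In 8 genes all of these had the same sign between genotypes: Mbd4, Ogg1, Neil3, Mpg, Lig3, Msh3, Rfc1 and Rfc3. The 2 probe sets of Ogg1 shared a sign only in the mean. They gave 0.27 and -0.22 within number 1, and -0.22 and 0.63 within number 2. The second probe set of Rfc3 had 7.63 and 5.90 in the wild-type samples and 8.11 and 6.63 in the Crebbp+/- samples, a difference of 0.61 (SE 0.78), with wider steps between numbers than the first. Another of Lig3 read 4.85 and 4.64 in the wild-type samples and 5.67 and 5.26 in the Crebbp+/- samples. Its difference was 0.72 (SE 0.30), with both Crebbp+/- samples above the wild type. Its single arrays overlapped between genotypes, and repeat arrays lay up to 1.15 apart. The 2 other probe sets of Rfc1 differed by 0.47 and 0.16.

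In the other 10 genes the probe sets had opposite signs. For Rfc4 the brightest gave -0.33 and the other 0.16, the latter with the samples of both genotypes apart. For Pold1 they gave -0.22 and 0.13, and for Fen1 -0.051 and 0.24. The direction given above for these 3 genes, as for the rest of the 10, therefore depends on the probe set chosen. For Pold3 the brightest gave 0.30 and the others -0.10 and -0.27. For Exo1 they gave 0.47, 0.34 and -0.24.

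Apex1 had 0.028, -0.075 and 0.20 on its 3 probe sets, and Rfc2 had 0.037, -0.069 and -0.16. Pms2 had -0.035 and 0.23. The 4 probe sets of Polb gave -0.11, -0.60, 0.14 and -0.070, and those of Parp1 gave -0.069, 0.069, 0.23 and -0.77. The last of these, with 4.43 and 4.82 in the wild-type samples and 3.61 and 4.09 in the Crebbp+/- samples, had the lowest unadjusted limma p of the 62 probe sets, 0.055, and did not pass after adjustment. It pointed the other way from 2 brighter probe sets of the same gene.

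All 4 arrays of Crebbp+/- lay above all 4 of wild type for 2 of the 62 probe sets, or 3.23% against 6.98% of all tested probe sets in either direction. They were the third probe set of Apex1, with 10.33 and 10.32 in the wild-type samples and 10.58 and 10.48 in the Crebbp+/- samples, and the second of Rfc1, with 7.07 and 7.17 in the wild-type samples and 7.56 and 7.64 in the Crebbp+/- samples. Neither is the brightest of its gene, and none of the 34 brightest separated all arrays.

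**Figure D4:**
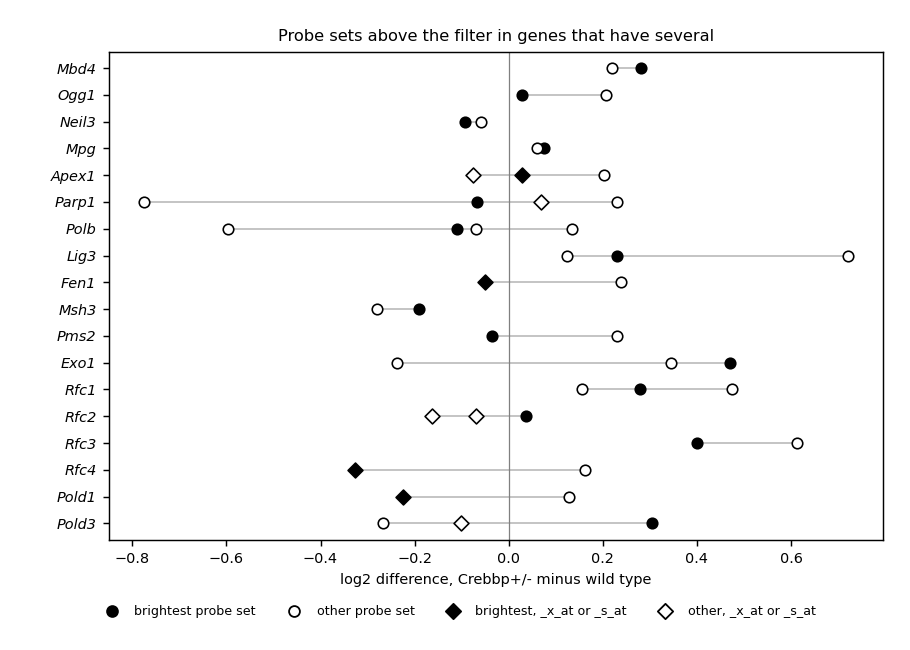
Log2 difference, Crebbp+/- minus wild type (x axis), of every probe set above the filter in the 18 repair genes that have several (y axis). Filled symbols are the brightest of each gene and diamonds are probe sets ending in _x_at or _s_at, which can bind more than 1 transcript; in 10 genes the symbols fall on both sides of 0.

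A second list, of these pathways and of related processes such as the direct reversal of alkylation, held 21 further genes. Of these 19 were found and 18 were above the filter; 0 passed the limma test, in either direction, 0 had an unadjusted p below 0.05, and 6 were higher and 12 lower in Crebbp+/-, or 33.3% higher against 56.9% of all genes, with a median of -0.087. The 3 with the lowest p were Parg, Alkbh2 and Alkbh3. Parg, which removes poly(ADP-ribose) chains, had 9.31 and 8.71 in the wild-type samples and 9.57 and 9.35 in the Crebbp+/- samples, a difference of 0.45 (SE 0.28). Alkbh2, which reverses alkylation of bases, had 4.68 and 5.25 in the wild-type samples and 4.77 and 4.22 in the Crebbp+/- samples, a difference of -0.47 (SE 0.36). Alkbh3, of the same family, had 10.07 and 9.64 in the wild-type samples and 9.77 and 9.36 in the Crebbp+/- samples, a difference of -0.29 (SE 0.26).

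Since the synthesis genes are also expressed with S phase, 20 proliferation genes such as Mki67 and the Mcm helicase subunits were set beside them. Of 18 found, all above the filter, 13 were higher and 5 lower in Crebbp+/-, or 72.2% higher against 56.9% of all genes, with a median difference of 0.076 beside 0.052 for the 10 synthesis genes. Of these, 0 passed the limma test and 0 had an unadjusted p below 0.05.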

How the data were processed

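The authors deposited log2 signals for 8 Affymetrix arrays, made with GCRMA per the submitters' processing notes. The GCRMA version, like its settings, is not given in the sources used here. These arrays measure RNA from 4 wild-type and 4 Crebbp+/- hybridisations, and array medians lay between 2.65 and 2.70. Their number limits the precision. Scanner files were not used here. Probe sets were named from the platform annotation, with gene identifiers matched to RefSeq (GRCm38.p6). Of 45037 probe sets without controls, 34945 had 1 symbol, 932 several and 9160 none.

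Repeat arrays of a numbered sample were averaged. The 22518 probe sets with a mean above 2.72 were fitted with limma 3.58.1 (lmFit, then eBayes with an intensity trend) in R 4.3.3, after the script was tested on simulated data. Benjamini-Hochberg adjustment ran over all of these, with a threshold of 0.05 and 4.75 total degrees of freedom. List medians are descriptions with no test. Full statistics are given for the 8 repair genes with the lowest unadjusted p and for those whose samples separate by genotype, and both signs are given where probe sets disagree. The members and lists were chosen with earlier results of these data known.

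Alternatives were other normalizations, filters, probe set choices, array handling, blocks and leaving out samples or arrays. Other cell types are judged only from marker lists.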

Additional observations from a re-analysis of the deposited data

How the results depend on the processing

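The count of repair genes past the limma test was 0 in every setting run, so their stability as calls could not be judged. Taking sample number as a replicate block also gave 0. An unadjusted limma p below 0.05 was then found for 4 of the 34 repair genes. The same held for 3673 of all 22518 tested probe sets. The lowest adjusted limma p of a repair gene was 0.20. In this balanced design the block leaves every difference as it is and alters only the error. The labels do not say that a number marks a shared batch, and with 2 pairs the correlation of same-numbered deviations was 0.55. With 8 arrays taken as independent, 1 of 22518 probe sets passed and the lowest adjusted limma p of a repair gene was 0.51. Of the 34 differences, 14 kept their sign in every setting, 13 changed it only when a sample or array was left out, and 7 changed it in another setting.

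Under quantile normalization the median of all repair genes was -0.018, and Rfc2 and Rfc5 were at -0.024 and -0.038. With the mean of all probe sets of a gene, the synthesis median was -0.0052, Fen1 was 0.094, Pms2 0.097, Rfc2 -0.065 and Pold3 -0.021. Without probe sets ending in _x_at or _s_at, an alternative chosen after the data were seen, the median was 0.070 over all repair genes and 0.13 over the synthesis genes, and Fen1, Rfc4 and Pold1 were at 0.24, 0.16 and 0.13.

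Leaving out 1 sample or array gave medians from -0.052 to 0.059 over all repair genes, -0.095 to 0.12 over the base excision genes, -0.00014 to 0.21 over the mismatch genes (without Crebbp+/- sample 1 and 2 in turn) and -0.017 to 0.11 over the synthesis genes. The same gave -0.34 to 0.12 for Ung, -0.37 to 0.43 for Ogg1, -0.31 to 0.13 for Neil3, -0.18 to 0.33 for Mpg and -0.28 to 0.33 for Apex1. It gave -0.59 to 0.14 for Aptx, -0.24 to 0.45 for Tdp1, -0.26 to 0.13 for Parp1, -0.35 to 0.27 for Xrcc1 and -0.21 to 0.11 for Fen1. Among mismatch genes it gave -0.63 to 0.25 for Msh3, -0.13 to 0.64 for Mlh3 and -0.17 to 0.11 for Pms2. Among synthesis genes it gave -0.072 to 0.63 for Rfc1, -0.052 to 0.13 for Rfc2, -0.24 to 0.26 for Rfc5, -0.55 to 0.10 for Pold1 and -0.33 to 0.47 for Pold4. Genes that kept their sign under these omissions also moved, though Pold3 and Rfc4 among them changed sign under other probe set choices, as above. Exo1 ranged from 0.013 to 0.93, Mutyh from 0.27 to 0.78, Rfc3 from 0.20 to 0.60 and Pold3 from 0.099 to 0.51. Mbd4 ranged from 0.054 to 0.51, Pms1 from -0.82 to -0.043 and Pcna from 0.053 to 0.21. Rfc4, on its brightest probe set, ranged from -0.52 to -0.13. The cause of these changes was not tested, beyond the smaller number of samples.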

Other observations

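The ending of a probe set's name went with the direction of its step between sample numbers, a pattern seen after the data were examined and not tested. The endings _x_at and _s_at mark probe sets that can bind more than 1 transcript. Of the 9 such probe sets of repair genes above the filter, 9 were higher in number 2 than in number 1 in wild type and 8 in Crebbp+/-, with median steps of 0.61 and 0.46. Of the other 53 probe sets of repair genes, 19 and 25 were higher in number 2, with medians of -0.16 and -0.10. Over all named probe sets the same split was 1715 and 1727 of 2620 for these endings and 7502 and 8098 of 16434 for the rest. The brightest probe sets of Apex1, Fen1, Rfc4 and Pold1 have such an ending. Within Apex1, the brightest probe set stepped by 0.61 in wild type and 0.33 in Crebbp+/-, and the one with neither ending by -0.0057 in wild type and -0.10 in Crebbp+/-.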
